A study of Mus musculus with 13 samples.

Results

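The 36 genes described here are genes of endothelial cells, of the growth of blood vessels and of the blood-retinal barrier, and they were taken by symbol from a written list after the Ensembl IDs of the count table had been matched to mouse gene symbols. All 36 were found among the 52550 genes of the table, and every one had counts in at least some of the 13 RNA-seq libraries. The libraries were made from retinal ganglion cells (RGCs) of mice enriched by sorting for the surface protein Thy1.2. In the knockout dataset, mice whose Kdm6a gene carries loxP sites around exon 3 received an intravitreal virus, AAV2-Cre (2 libraries), which deletes that exon in the cells it reaches, or AAV2-GFP (3 libraries), which leaves the floxed gene whole, and cells were taken from these adults (P42 by the labels) 3 days after optic nerve crush. In the development dataset, wild type mice without virus or injury gave 3 libraries at postnatal day (P) 1, 3 at P14 and 2 at P21. All 5 knockout libraries thus share the floxed allele, the injury and a virus, and differ from the 8 development libraries in all of these and in age at once. Whether a library came from 1 animal or a pool is not given in the sources used here, so p-values measure the spread between these libraries only.

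Blood vessels of the mouse retina grow over the inner surface after birth, then sprout into deeper layers and are remodelled into a mature network. VEGF made by the surrounding tissue draws sprouts forward through its receptors on endothelial cells, angiopoietins acting on Tie receptors set how far vessels stay labile or become stable, and apelin marks the cells at sprout tips. Vessels of the retina, as of the brain, close their junctions and carry specific transporters, which together form the blood-retinal barrier. A sort for Thy1.2 is meant to keep neurons and not vessels, so what follows describes RNA that was present in the sorted samples, and in bulk samples fewer cells of a type and less RNA per cell cannot be told apart.

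Total counts per library lay between 13637602 and 16070720 in the knockout dataset and between 30357454 and 38812917 in the development dataset. Levels are given as CPM, a gene's count relative to its library's total, with edgeR's TMM factors offsetting differences in library composition within each dataset, and a count of 3 stood for 0.187 to 0.220 CPM in the knockout libraries and for 0.0735 to 0.0945 CPM in the development libraries. The 10 ganglion cell markers together took 0.0273% to 0.0333% of counts in AAV2-Cre and 0.0313% to 0.0358% in AAV2-GFP, and 0.551% to 0.607% at P1, 0.101% to 0.11% at P14 and 0.0321% to 0.0552% at P21. Pou4f2, a transcription factor that defines most RGCs, was at 0 in both AAV2-Cre libraries and at most 0.145 CPM in AAV2-GFP, with 239 to 263 CPM at P1, 9.31 to 14.8 CPM at P14 and 11.7 and 0.972 CPM at P21. The 36 vessel genes together took 0.112% and 0.126% of counts in AAV2-Cre and 0.0858% to 0.113% in AAV2-GFP, and 0.0445% to 0.0658% at P1, 0.356% to 0.367% at P14 and 0.364% to 0.367% at P21. Most of these sums came from a handful of genes. Without Vegfa, Kdr, Flt1, Slc2a1, Fli1 and Cd34, the other 30 genes took 0.0228% and 0.0244% in AAV2-Cre and 0.0155% to 0.0189% in AAV2-GFP, and 0.00785% to 0.00968% at P1, 0.0669% to 0.0760% at P14 and 0.0314% to 0.0397% at P21.

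**Figure D1:**
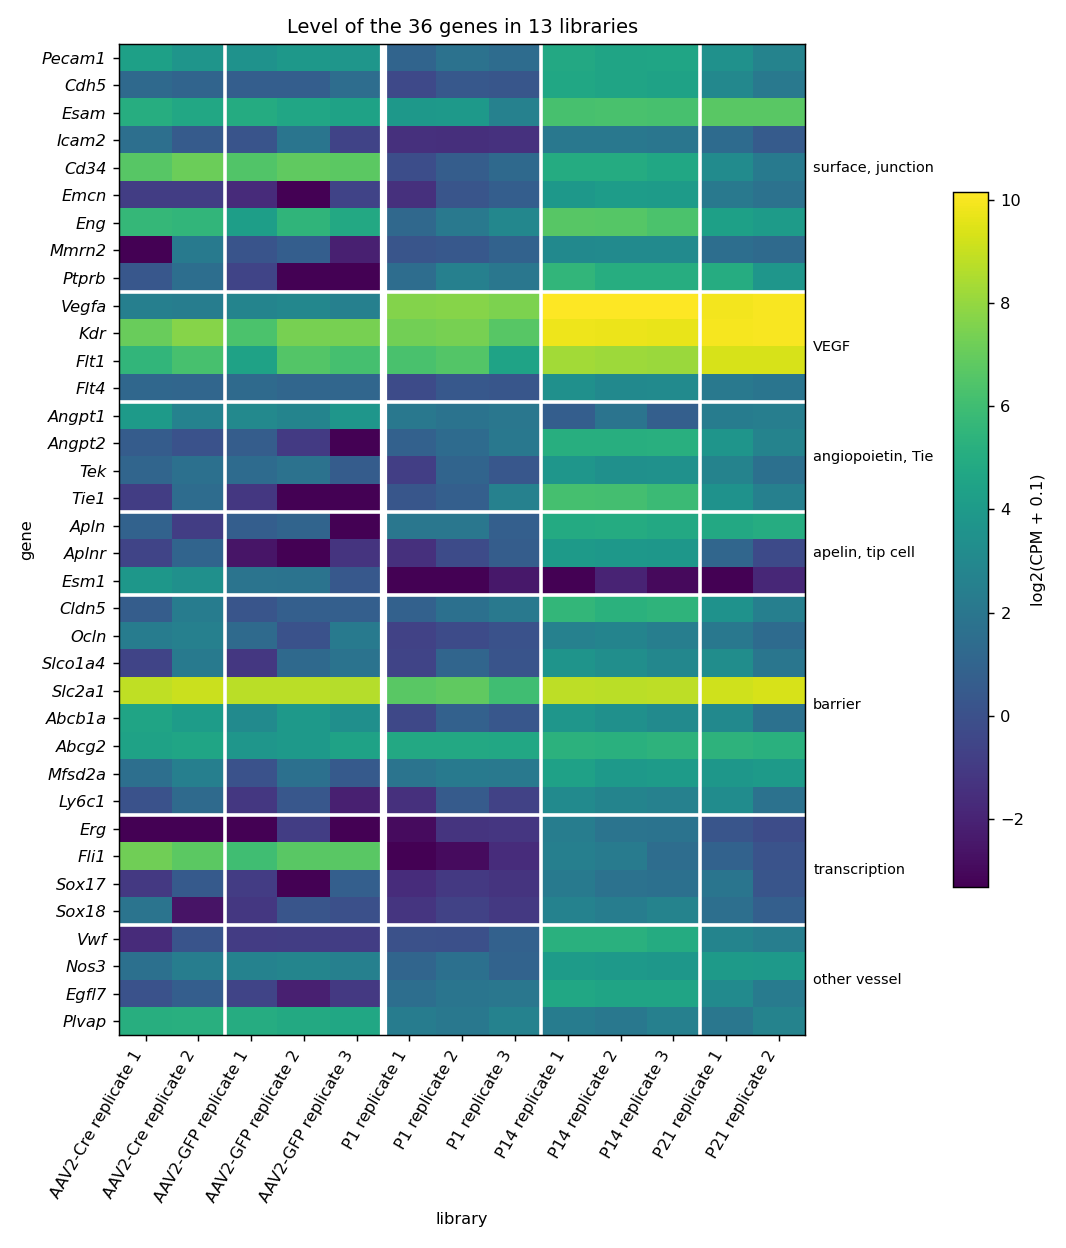
Level of each of the 36 genes (rows, grouped by role) in each of the 13 libraries (columns), as log2 of CPM plus 0.1, with AAV2-Cre and AAV2-GFP at the left and P1, P14 and P21 at the right. Among the development libraries most rows are darkest at P1 and brighter at P14, while Fli1, Cd34 and Plvap are brightest in the 5 adult libraries and Vegfa is brightest at P14 and P21.

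Vessel genes rose together between P1 and P14. Of 35 genes tested, 33 were higher at P14, 1 was lower and 1 was not called, where a call is a Benjamini-Hochberg adjusted p under 0.05 over all genes from edgeR's quasi-likelihood test. Of all 20890 genes tested in the development dataset, 33.6% were called higher and 33.6% lower in this comparison. The median log2 fold change of the 35 genes was 3.23, against -0.014 over all genes. The exceptions were Angpt1, which fell, and Plvap, while Esm1 was too low for a test.

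Among the surface and junction genes, all 9 rose, by log2 fold changes from 2.64 to 4.53. Cdh5, which encodes VE-cadherin, the adhesion molecule that holds endothelial cells together, had 0.699, 1.23 and 1.13 CPM at P1, 26.0, 23.1 and 21.5 CPM at P14 and 7.82 and 4.19 CPM at P21. Its P14 libraries lay above all others without overlap, and the change over P1 was 23.0-fold (log2 fold change 4.53, SE 0.26, adjusted p = 2.4e-07, edgeR). Pecam1, the platelet and endothelial adhesion molecule also found on leukocytes, had 1.95, 3.26 and 2.62 CPM at P1, 27.5, 23.4 and 23.9 CPM at P14 and 11.2 and 6.44 CPM at P21 and rose 9.56-fold over P1 (adjusted p = 8.59e-07, edgeR). Eng, endoglin, a co-receptor for BMP and TGF-β ligands, had 2.27, 4.34 and 7.56 CPM at P1, 100.1, 95.2 and 81.1 CPM at P14 and 20.02 and 16.9 CPM at P21. Its P1 libraries differed among themselves by more than 3-fold, yet all lay far below every P14 library (log2 fold change 4.28, SE 0.30, adjusted p = 8.79e-07, edgeR). Cd34, a sialomucin of endothelial and blood progenitor cells, rose by 4.24 (log2), Emcn, endomucin of veins and capillaries, by 4.07, and Icam2, an adhesion molecule for leukocytes, by 3.9 (edgeR, adjusted p = 1.7e-06, 4.58e-06 and 1.92e-06). Rises of 3.21, 2.71 and 2.64 were measured for Ptprb, the phosphatase VE-PTP that restrains Tie2 and VE-cadherin signaling, Esam, an adhesion molecule of endothelial tight junctions, and Mmrn2, a matrix glycoprotein of endothelium (edgeR, adjusted p = 2.27e-05, 6.35e-06 and 1.25e-06).

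The growth factor systems rose as well, ligand and receptors alike for VEGF but not for angiopoietin. Vegfa, the ligand that drives sprouting and is made mostly by glia and neurons, had 203, 209 and 178 CPM at P1, 1115, 1135 and 1138 CPM at P14 and 976 and 1035 CPM at P21. P14 was 5.75-fold above P1 (log2 fold change 2.52, SE 0.06, adjusted p = 4.32e-09, edgeR), and no library of one age reached those of the other. Kdr, VEGFR2, the main signaling receptor, had 157, 165 and 98.8 CPM at P1, 896, 857 and 849.6 CPM at P14 and 1004 and 1035 CPM at P21, a 6.18-fold rise at P14 over P1 (adjusted p = 3.74e-07, edgeR). Flt4, VEGFR3, which also serves lymphatic vessels and tip cells, had 0.757, 1.20 and 1.13 CPM at P1, 10.9, 8.44 and 8.70 CPM at P14 and 4.32 and 3.68 CPM at P21 and rose 9.09-fold (adjusted p = 4.67e-07, edgeR). Flt1, VEGFR1, which binds and holds back VEGF, had a log2 fold change of 2.17 at P14 (SE 0.39, adjusted p = 0.000772, edgeR).

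Of the angiopoietin genes, Angpt2, made by endothelial cells and linked to labile vessels, had 1.69, 2.52 and 4.04 CPM at P1, 34.7, 34.9 and 36.4 CPM at P14 and 12.8 and 6.41 CPM at P21, a 12.8-fold rise at P14 over P1 (adjusted p = 2.63e-06, edgeR). Tie1, the co-receptor of the pathway, had 1.14, 1.60 and 5.93 CPM at P1, 73.4, 68.9 and 57.9 CPM at P14 and 11.8 and 5.68 CPM at P21 and rose 22.8-fold (adjusted p = 1.53e-05, edgeR). P1 replicate 3 was well above the other P1 libraries for Tie1 and still below every P14 library. Tek, the receptor Tie2, had 0.466, 1.91 and 1.19 CPM at P1, 13.5, 10.96 and 11.1 CPM at P14 and 6.52 and 3.04 CPM at P21 and rose 10.02-fold over P1 (adjusted p = 4.38e-05, edgeR). Angpt1, the ligand that activates Tie2 and is made mainly by cells around the vessel, had 4.14, 3.45 and 4.01 CPM at P1, 1.52, 3.50 and 1.62 CPM at P14 and 4.92 and 5.28 CPM at P21. It was the 1 gene that fell at P14, by 0.82 on the log2 scale (SE 0.30, adjusted p = 0.0317, edgeR), although P14 replicate 2 overlapped the P1 libraries. That call was lost without P1 replicate 1, without P14 replicate 1 and without P14 replicate 3 (edgeR, adjusted p = 0.0802, 0.114 and 0.118).

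Apln, the secreted ligand of tip cells, had 3.93, 4.001 and 1.61 CPM at P1, 30.6, 30.8 and 28.0 CPM at P14 and 28.1 and 32.4 CPM at P21 and rose 9.41-fold at P14 over P1 (adjusted p = 1.46e-06, edgeR). Its receptor gene Aplnr, active in the cells behind the tip and in veins, had 0.262, 0.739 and 1.496 CPM at P1, 16.0, 14.4 and 14.2 CPM at P14 and 2.12 and 0.729 CPM at P21, and its P14 libraries were 17.7-fold above P1 (adjusted p = 1.85e-05, edgeR). Esm1, a proteoglycan of retinal tip cells, was at 0, 0 and 0.0847 CPM at P1, 0, 0.157 and 0.0245 CPM at P14 and 0 and 0.182 CPM at P21. These are at most 6 counts in a library, so Esm1 was close to the detection limit at all 3 ages and no change was detectable at this depth.

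All 8 barrier genes rose, by 0.53 to 3.83 on the log2 scale. Cldn5, the claudin that seals junctions of barrier vessels, had 1.75, 3.02 and 4.29 CPM at P1, 48.4, 38.4 and 42.6 CPM at P14 and 11.7 and 5.47 CPM at P21 and was 14.3-fold higher at P14 than at P1 (log2 fold change 3.83, SE 0.32, adjusted p = 3e-06, edgeR). Slc2a1, GLUT1, the glucose transporter of barrier endothelium and of some glia and neurons, had 103, 118 and 63.9 CPM at P1, 455, 429 and 455 CPM at P14 and 583 and 636 CPM at P21, a 4.70-fold rise at P14 over P1 (adjusted p = 2.65e-06, edgeR). Mfsd2a, a lysolipid transporter that keeps transcytosis low in barrier vessels, had 3.55, 4.49 and 4.20 CPM at P1, 20.9, 15.6 and 17.0 CPM at P14 and 13.7 and 15.9 CPM at P21 and rose 4.36-fold (adjusted p = 6.9e-07, edgeR). The tight junction gene Ocln, occludin, rose by 3.01 (log2) and the organic anion transporter gene Slco1a4 by 3.05 (edgeR, adjusted p = 5.38e-06 and 0.000176). Among drug efflux pumps, Abcb1a, P-glycoprotein, rose by 3.21, while Abcg2 rose by only 0.53 (edgeR, adjusted p = 5.62e-05 and 4.26e-05). Abcg2 was already at 27.7, 27.8 and 26.8 CPM at P1, with 39.7, 37.6 and 41.5 CPM at P14 and 41.1 and 37.8 CPM at P21, and its P14 libraries lay above all P1 libraries. Ly6c1, a surface protein of brain and retinal endothelium, rose by 3.32 (adjusted p = 0.000286, edgeR). Its near-identical neighbor Ly6c2, a monocyte gene, could share its reads, and was at most 0.157 CPM at P14 and at 0 in all P1 libraries.

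All 4 transcription factor genes rose. Erg and Fli1 encode ETS factors that switch on endothelial genes, and Fli1 is also active in blood cells. Fli1 had 0, 0.0308 and 0.226 CPM at P1, 5.51, 4.69 and 2.67 CPM at P14 and 1.77 and 0.972 CPM at P21, and Erg had 0.0291, 0.308 and 0.339 CPM at P1, 5.17, 3.50 and 3.38 CPM at P14 and 1.09 and 0.790 CPM at P21. Their log2 fold changes at P14 over P1 were 5.55 (SE 0.66) and 4.14 (SE 0.48), with adjusted p = 3.79e-05 and 3.5e-05 from edgeR, and the size for Fli1 rests on P1 values that were at most 1 count in all libraries but P1 replicate 3. Sox18, a SOXF factor of artery and lymphatic differentiation, had 0.320, 0.523 and 0.367 CPM at P1, 6.27, 5.20 and 6.52 CPM at P14 and 2.93 and 1.58 CPM at P21, a 14.8-fold rise over P1 (adjusted p = 1.72e-06, edgeR). Sox17, its relative in arteries, had 0.233, 0.369 and 0.310 CPM at P1, 4.67, 3.24 and 3.09 CPM at P14 and 3.72 and 1.06 CPM at P21 and rose 11.96-fold (adjusted p = 0.000112, edgeR).

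Of the remaining vessel genes, Vwf, the clotting protein stored by endothelium and megakaryocytes, had 0.932, 0.893 and 1.75 CPM at P1, 37.5, 37.2 and 30.7 CPM at P14 and 6.71 and 5.35 CPM at P21, which is 29.2-fold higher at P14 than at P1 (log2 fold change 4.87, SE 0.22, adjusted p = 4.44e-08, edgeR). The summed level of 10 platelet and megakaryocyte markers went the other way at P14, with 64.8 to 69.7 CPM at P1, 20.6 to 25.7 CPM at P14 and 11.4 to 15.5 CPM at P21. Only 3 of the 10 had counts enough for a test. Of these, edgeR called 2 lower and 0 higher at P14 over P1, and 1 lower and 0 higher at P21 over P14. The part of these cells in the Vwf values was not tested. Nos3, endothelial nitric oxide synthase, had 2.01, 3.05 and 1.89 CPM at P1, 16.5, 15.7 and 13.7 CPM at P14 and 16.4 and 14.9 CPM at P21, and Egfl7, a secreted endothelial matrix protein, had 2.83, 3.72 and 3.95 CPM at P1, 26.2, 22.9 and 23.3 CPM at P14 and 8.66 and 4.77 CPM at P21. Both rose at P14 over P1, 6.61-fold and 6.90-fold (edgeR, adjusted p = 4.27e-07 and 1.43e-06). Plvap, which forms the diaphragms of leaky, fenestrated vessels and is low in mature barrier vessels, had 5.04, 4.06 and 6.15 CPM at P1, 5.01, 4.06 and 5.74 CPM at P14 and 3.91 and 6.35 CPM at P21. Its libraries overlapped across all 3 ages, with log2 fold changes of -0.04 (SE 0.23) at P14 over P1 and 0.05 (SE 0.25) at P21 over P14. Exons of Eng, Nos3 and Egfl7 overlap those of Fpgs, Atg9b and Agpat2 on the other strand, and the library kit does not mark strand, so some of their reads may belong to these neighbors.

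Between P14 and P21 the vessel genes split. Of 35 tested, 19 fell, 1 rose and 15 were not called (edgeR, adjusted p under 0.05), against 19.3% of all 20890 genes called lower and 14.6% called higher. The median of the 35 genes was -1.04, against -0.003 over all genes. All 19 genes that fell had risen at P14. Another 14 genes had risen at P14 and were not called at P21.

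**Figure D2:**
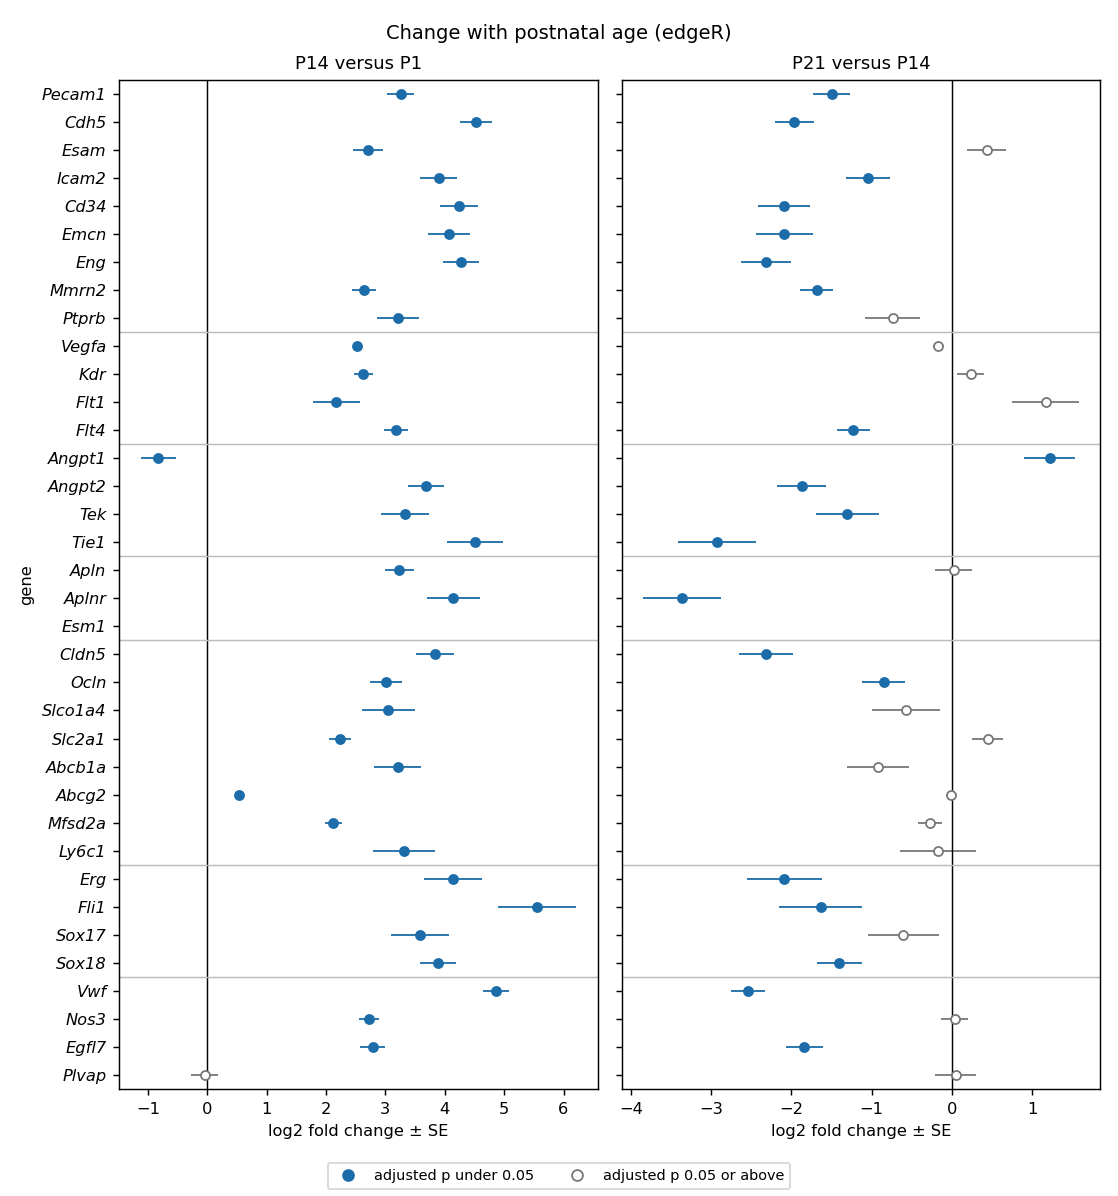
Log2 fold change of each gene with its standard error (SE, horizontal bars) at P14 versus P1 (left) and at P21 versus P14 (right), with filled points for adjusted p under 0.05 (edgeR) and lines between role groups. All points at the left but Angpt1, Plvap and Abcg2 lie above 2, while at the right Aplnr and Tie1 lie lowest, at -3.36 and -2.93, and Flt1 and Angpt1 highest, at 1.17 and 1.22.

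The fall took in most genes of the endothelial surface. In this group 7 of 9 fell and 2, Esam and Ptprb, were not called. At P21 Cdh5 was 3.90-fold lower than at P14 (log2 fold change -1.96, SE 0.25, adjusted p = 0.000331, edgeR), with the P21 libraries between those of P1 and P14. Eng fell 4.98-fold (log2 fold change -2.32, SE 0.31, adjusted p = 0.000438, edgeR) and Mmrn2, with 1.08, 1.20 and 1.78 CPM at P1, 8.29, 8.63 and 8.51 CPM at P14 and 2.85 and 2.40 CPM at P21, fell 3.22-fold (adjusted p = 0.000305, edgeR). Pecam1, Cd34, Emcn and Icam2 fell by 1.5, 2.09, 2.09 and 1.04 on the log2 scale (edgeR, adjusted p from 0.00101 to 0.0167). Esam went against the rest of its group, with 14.2, 14.9 and 6.04 CPM at P1, 74.7, 78.4 and 75.7 CPM at P14 and 103 and 103 CPM at P21. Both P21 libraries lay above every P14 library, and the log2 fold change of 0.43 (SE 0.25) was not called (adjusted p = 0.212, edgeR). Ptprb had 2.68, 5.76 and 3.95 CPM at P1, 47.1, 34.0 and 33.0 CPM at P14 and 32.0 and 13.4 CPM at P21, a change of -0.74 at P21 (SE 0.35, adjusted p = 0.131, edgeR).

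Aplnr and Tie1 fell most of the 19, while the ligands of these systems differed. Aplnr was 10.3-fold lower at P21 than at P14 (log2 fold change -3.36, SE 0.49, adjusted p = 0.00072, edgeR), and its P21 libraries, at 2.12 and 0.729 CPM, overlapped the range of P1. Its ligand Apln, at 28.1 and 32.4 CPM at P21, against 30.6, 30.8 and 28.0 CPM at P14, had a log2 fold change of 0.02 (SE 0.23, adjusted p = 0.957, edgeR). Tie1 fell 7.604-fold (log2 fold change -2.93, SE 0.49, adjusted p = 0.00162, edgeR), Angpt2 fell 3.66-fold (adjusted p = 0.00145, edgeR) and Tek fell 2.47-fold (adjusted p = 0.0305, edgeR). Angpt1 rose 2.33-fold at P21 over P14 (log2 fold change 1.22, SE 0.32, adjusted p = 0.0157, edgeR), and both P21 libraries lay above all P14 libraries. This call was lost without P14 replicate 1, P14 replicate 3 or P21 replicate 2 (edgeR, adjusted p = 0.0549, 0.0601 and 0.0643).

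Among VEGF genes only Flt4 fell, 2.34-fold (log2 fold change -1.23, SE 0.20, adjusted p = 0.00152, edgeR). This is 1 of 4 genes, where 19.3% of all genes were called lower. Flt1 had 77.0, 94.8 and 22.6 CPM at P1, 307, 292 and 278 CPM at P14 and 656 and 657 CPM at P21. Both P21 libraries were more than 2-fold above every P14 library, yet the log2 fold change of 1.17 (SE 0.41) had an adjusted p of 0.055 from edgeR. P1 replicate 3, which enters the same estimate of spread, was far below its replicates for this gene. Kdr changed by 0.23 (SE 0.17, adjusted p = 0.329, edgeR) and Vegfa by -0.17 (SE 0.07, adjusted p = 0.0851, edgeR), with the P21 libraries above P14 for Kdr and below P14 for Vegfa. Without P1 replicate 3, Flt1, Slc2a1, Esam and Kdr were called higher at P21, with log2 fold changes of 1.17, 0.45, 0.43 and 0.23, and Vegfa lower, at -0.17 (edgeR, adjusted p from 2.09e-07 to 0.0107), and Flt1 was also called without P1 replicate 2 (edgeR, adjusted p = 0.0432). Without P1 replicate 3 the counts at P21 versus P14 were 5 higher and 20 lower.

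**Figure D3:**
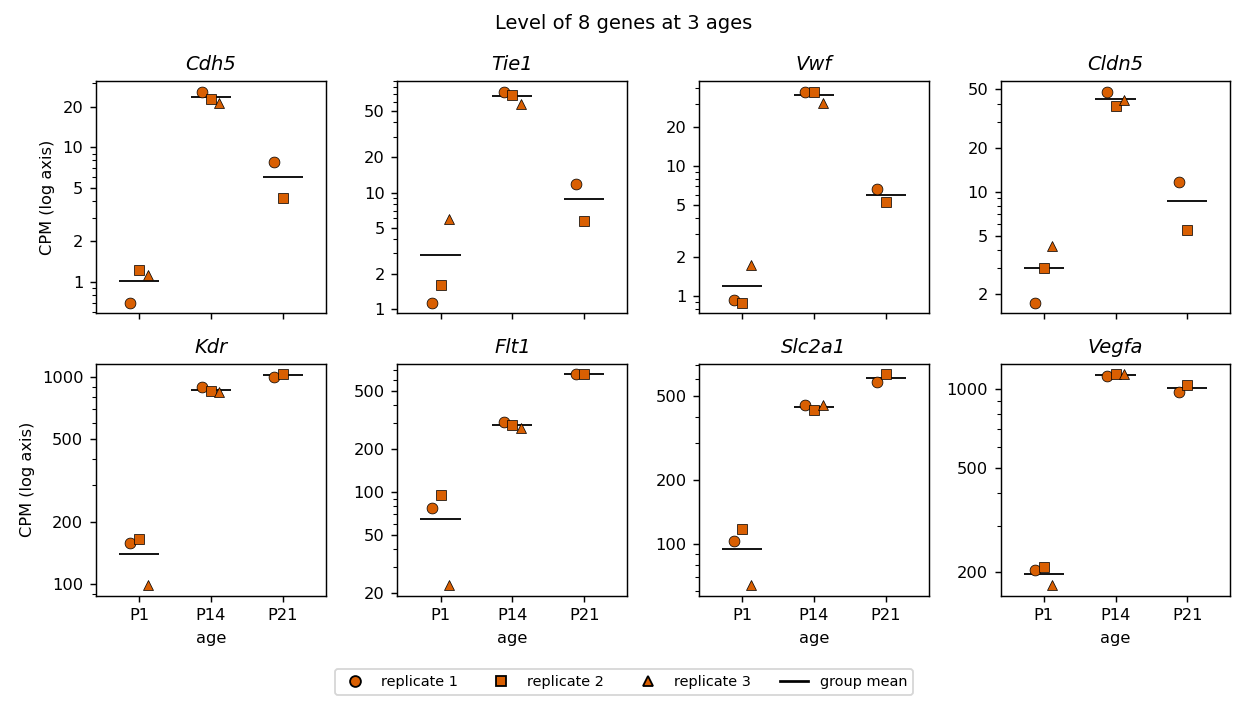
CPM on a log axis of 8 genes at P1, P14 and P21, with 1 point per library, shapes for replicate numbers and a line at each group mean. Cdh5, Tie1, Vwf and Cldn5 in the top row are highest at P14, with P21 libraries between 4.19 and 11.8 CPM, while Kdr, Flt1 and Slc2a1 in the bottom row are highest at P21 and Vegfa lies between 976 and 1138 CPM over P14 and P21.

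Of the 8 barrier genes, 2 fell at P21 and 6 were not called. As 19.3% of all genes were called lower, the 2 falls stand near that share. The junction genes Cldn5 and Ocln fell, by 2.32 and 0.85 on the log2 scale (edgeR, adjusted p = 0.000703 and 0.0337). Ocln had 0.524, 0.739 and 0.959 CPM at P1, 6.06, 6.61 and 5.32 CPM at P14 and 4.13 and 2.49 CPM at P21, and its P21 libraries lay between those of the other ages. None of the 6 transport and surface genes was called. Mfsd2a changed by -0.27 (SE 0.15), Abcg2 by -0.01 (SE 0.07), Slc2a1 by 0.45 (SE 0.19) and Abcb1a by -0.92 (SE 0.39), with adjusted p = 0.192, 0.96, 0.104 and 0.0965 from edgeR. Slco1a4 and Ly6c1 changed by -0.57 and -0.17, with SE of 0.43 and 0.47. The change of Abcb1a was as large as that of Ocln, so for this pair the calls do not follow the sizes. Cldn5 fell most of the 8.

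Among transcription factors Erg, Fli1 and Sox18 fell, by 2.09, 1.64 and 1.4 on the log2 scale (edgeR, adjusted p = 0.00743, 0.0371 and 0.0043), and Sox17 changed by -0.61 (SE 0.44, adjusted p = 0.323). Vwf fell 5.81-fold (log2 fold change -2.54, SE 0.21, adjusted p = 3.1e-05, edgeR) and Egfl7 3.58-fold (adjusted p = 0.000291, edgeR). Nos3 changed by 0.03 (SE 0.17, adjusted p = 0.899, edgeR), with 16.4 and 14.9 CPM at P21, against 16.5, 15.7 and 13.7 CPM at P14.

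The P21 libraries differed from each other in many of these genes. Replicate 1 lay at 132 CPM and replicate 2 at 80.2 CPM for the summed level of the 19 genes that fell, and Tie1, Cldn5, Aplnr, Ptprb, Abcb1a and Ly6c1 were each more than 2-fold higher in replicate 1. Kdr, Flt1, Esam, Vegfa, Slc2a1, Abcg2 and Nos3 were close in both. Replicate 1 also had more of the ganglion cell markers, 549 CPM, against 322 CPM in replicate 2, and their part in the difference was not tested. Without P21 replicate 1, Ptprb, Abcb1a and Sox17 were also called lower, at -1.52, -1.77 and -1.80 (edgeR, adjusted p from 0.00779 to 0.00846). Without P21 replicate 2, the calls for Icam2, Tek, Ocln and Fli1 were lost (edgeR, adjusted p from 0.0829 to 0.187), as they were without P14 replicate 1 (from 0.0516 to 0.133) and without P14 replicate 2 (from 0.0515 to 0.107). Without P14 replicate 3, Tek and Ocln were no longer called (edgeR, adjusted p = 0.0715 and 0.0576).

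Markers of several other cell types, vascular and not, moved with these genes. Of all genes, 33.6% were called higher at P14 over P1 and 19.3% lower at P21 over P14. Pericytes wrap small vessels, and 12 of 12 pericyte markers rose at P14 and 11 of 12 fell at P21 (edgeR, adjusted p under 0.05). Their summed level was 150, 192 and 410.2 CPM at P1, 4489 to 5140 CPM at P14 and 833 to 1076 CPM at P21. Smooth muscle markers (8 of 8 rose at P14 and 6 of 8 fell at P21) ran from 40.4 to 74.7 CPM at P1, from 814 to 838 CPM at P14 and from 227 to 312 CPM at P21, and microglia and macrophage markers (12 of 12 rose and 12 of 12 fell) from 14.1 to 29.3, from 237 to 247 and from 64.0 to 74.7 CPM at the same ages. Rod photoreceptor markers followed the same course (10 of 10 rose and 9 of 10 fell), with sums of 117 to 134 CPM at P1, 896 to 1054 CPM at P14 and 524 to 527 CPM at P21. Glia markers also rose at P14 (10 of 10) but were not called lower at P21 (4 of 10 rose and 0 fell). Their sums were 1936 to 5341 CPM at P1, 18468 to 19628 CPM at P14 and 34745 to 36783 CPM at P21. P1 replicate 3 had the lowest glia sum, 1936 CPM, against 4946 and 5341 CPM in its replicates, and the highest pericyte sum. Flt1, Kdr, Esam and Slc2a1 were lowest in that library, and Tie1, Eng, Cd34 and Vwf were highest. The part of these cells in the results was not tested.

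**Figure D4:**
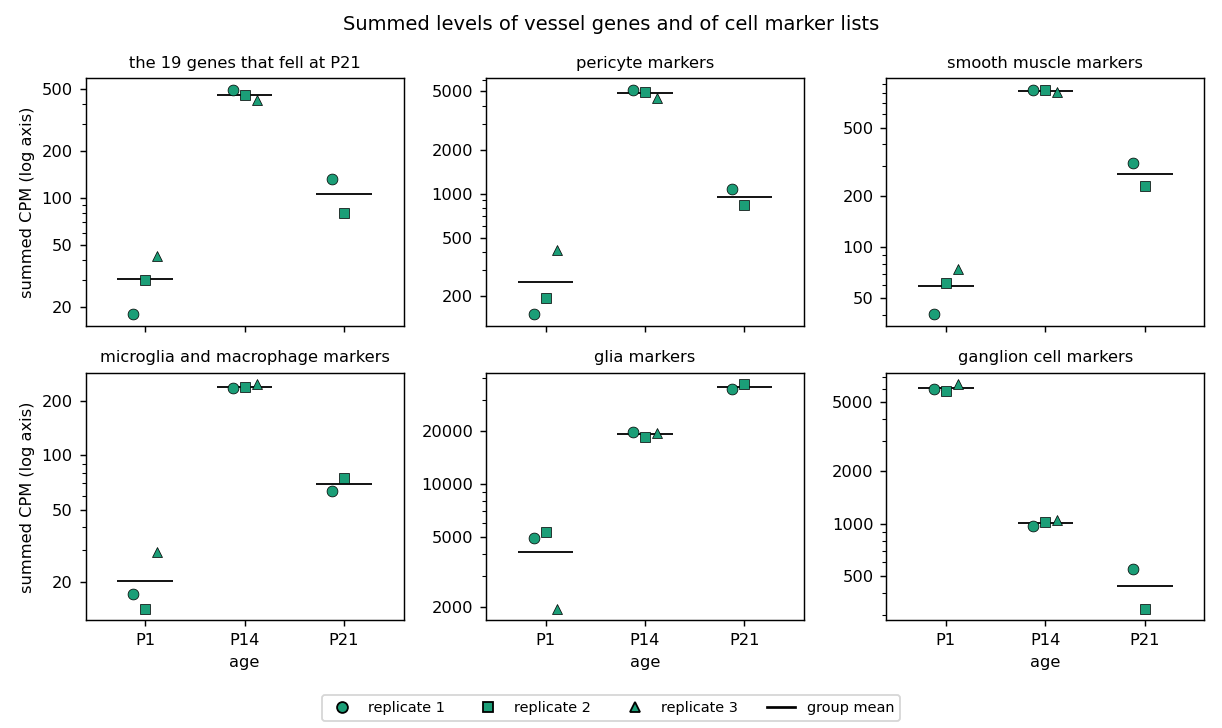
Summed CPM on a log axis of the 19 genes that fell at P21 and of 5 lists of cell markers at P1, P14 and P21, with 1 point per library, shapes for replicate numbers and a line at each group mean. The 19 genes were chosen by their fall at P21, so their peak at P14 follows from that choice. All 36 genes together summed to 3387 to 3544 CPM at P14 and to 3624 and 3684 CPM at P21. The pericyte, smooth muscle, and microglia and macrophage markers are highest at P14, the glia markers at P21 and the ganglion cell markers at P1.

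Over the whole span, P21 stayed above P1 for most vessel genes. Of 35 tested, 32 were higher, 0 lower and 3 not called (edgeR, adjusted p under 0.05), where 34.1% of all genes were higher and 33.6% lower. DESeq2 also called 0 lower, and 0 of the 35 log2 fold changes were below 0, so 0 lower genes had an unadjusted p under 0.05. The median was 2.16, against 0.014 over all genes. Fli1, Flt1, Apln, Esam and Ly6c1 had the largest differences, with log2 fold changes of 3.92, 3.34, 3.25, 3.14 and 3.14 (edgeR, adjusted p from 2.09e-06 to 0.00105). Angpt1, Aplnr and Plvap were not called, at 0.40 (SE 0.31), 0.78 (SE 0.56) and 0.01 (SE 0.25). Without P21 replicate 1 the count was 28 higher, with Tie1, Cldn5, Erg and Egfl7 no longer called (edgeR, adjusted p from 0.0556 to 0.237). Tie1 was also lost without P1 replicate 1 or P1 replicate 2 and with DESeq2 (adjusted p = 0.0618, 0.0719 and 0.065), and Aplnr was called higher without P1 replicate 3 (edgeR, adjusted p = 0.0168). The 3 age comparisons share libraries and are not independent of each other.

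Genes were also set against the mean of 4 genes found in all endothelial cells, Cdh5, Tie1, Esam and Erg, as the log2 CPM of a gene minus that mean in each library. This mean was 0.04, 0.89 and 1.02 at P1, 4.88, 4.69 and 4.58 at P14 and 3.36 and 2.76 at P21 on the log2 scale. At P14 against P1, 1 of the other 31 genes was higher relative to it without overlap between libraries (Vwf, by 0.81) and 19 were lower, where 0.124% of all genes were higher and 96.1% lower. Angpt1 and Plvap were furthest below, with differences of -4.96 and -4.10. At P21 against P14, 18 of 31 genes were higher without overlap, where 85.0% of all genes were, and 6 were lower, where 2.90% of all genes were. The 6 were Aplnr, Vwf, Cldn5, Eng, Cd34 and Egfl7, with differences of -1.85, -0.88, -0.76, -0.66, -0.51 and -0.24, and among the 18 were Angpt1, Flt1, Slc2a1, Kdr, Nos3 and Plvap, with 2.95, 2.83, 2.10, 1.89, 1.69 and 1.68. With 2 or 3 libraries a group the exact permutation test cannot go below a two-sided p of 0.1, so these are descriptions. With Pecam1 in place of Esam among the 4 genes, 24 were higher and 3 lower at P21.

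Promoter sequences of 21 of the 36 genes were in the RefSeq table for GRCm38.p6, as 30 windows that run from upstream of a start site into the first transcribed bases. They were read for 3 short motifs on both strands, which do not overlap each other. AGGAAG, an ETS core, was in 15 of the 30 windows and in 35.4% of all 32851 windows, ACAAT, a SOX core, in 6 of 30 and in 31.02% of all, and ACGTG, the core of a hypoxia response element, in 3 of 30 and in 19.6% of all. By gene, some with several windows, these were 12, 6 and 3 of 21. Of the 10 genes with a window that fell at P21, 6 held AGGAAG, 4 held ACAAT and 0 held ACGTG. Of the 11 others, 6 held AGGAAG, 2 held ACAAT and 3, Slc2a1, Mfsd2a and Vegfa, held ACGTG. Such a match is a description of letters and not a binding site. Tie1 and Emcn are shown as genes that fell, with AGGAAG or its reverse complement CTTCCT in capitals, and Slc2a1 and Mfsd2a as genes that were not called, with ACGTG in capitals, each 5′ to 3′ on the strand of the gene. None of the 4 windows held the E-box CACGTG, which would contain ACGTG. Tie1 lies at chr4:118489800-118490099 (minus strand), Emcn at chr3:137340828-137341127 (plus strand), Slc2a1 at chr4:119108495-119108794 (plus strand) and Mfsd2a at chr4:122961139-122961438 (minus strand), all GRCm38.p6.
Tie1: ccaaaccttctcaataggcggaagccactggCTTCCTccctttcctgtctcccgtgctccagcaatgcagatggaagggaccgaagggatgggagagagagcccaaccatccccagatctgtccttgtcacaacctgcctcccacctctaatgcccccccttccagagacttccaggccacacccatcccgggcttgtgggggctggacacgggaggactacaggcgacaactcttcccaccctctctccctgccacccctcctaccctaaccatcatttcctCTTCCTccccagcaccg
Emcn: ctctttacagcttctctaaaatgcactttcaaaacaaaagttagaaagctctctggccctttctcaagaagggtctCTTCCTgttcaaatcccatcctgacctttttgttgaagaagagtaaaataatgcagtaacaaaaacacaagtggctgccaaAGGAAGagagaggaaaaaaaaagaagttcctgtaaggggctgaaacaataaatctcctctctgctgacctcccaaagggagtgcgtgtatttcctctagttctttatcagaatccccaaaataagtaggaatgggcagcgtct
Slc2a1: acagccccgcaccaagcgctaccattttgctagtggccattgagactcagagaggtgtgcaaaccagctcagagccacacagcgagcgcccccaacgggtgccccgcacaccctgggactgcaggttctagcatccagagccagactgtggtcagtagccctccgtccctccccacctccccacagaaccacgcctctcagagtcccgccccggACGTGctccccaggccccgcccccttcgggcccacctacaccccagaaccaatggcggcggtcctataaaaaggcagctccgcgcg
Mfsd2a: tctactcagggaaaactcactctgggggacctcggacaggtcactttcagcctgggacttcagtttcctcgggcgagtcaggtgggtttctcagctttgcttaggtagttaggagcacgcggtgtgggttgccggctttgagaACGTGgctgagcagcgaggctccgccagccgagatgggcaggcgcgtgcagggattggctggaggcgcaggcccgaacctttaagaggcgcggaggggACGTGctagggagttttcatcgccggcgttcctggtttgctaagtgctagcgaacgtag

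Other lists of vessel and barrier genes are given beside the shares of all genes called, 33.6% higher and 33.6% lower at P14 over P1, and 14.6% higher and 19.3% lower at P21 over P14. Among 31 other endothelial genes, edgeR called 27 rises and 2 falls over P1 at P14, then 19 falls and 0 rises over P14 at P21, with 20 and 2 at an unadjusted p under 0.05. Robo4, a receptor that steadies vessels, rose by 4.09 at P14 and Elk3, an ETS factor, by 3.21, while Ets1, another ETS factor, fell by 2.87 and Clec14a, an endothelial lectin, by 2.39 on the log2 scale at P21 (edgeR, adjusted p from 3.01e-08 to 0.000167). In the Norrin and Wnt pathway that sets up the retinal barrier, 13 of 16 genes tested rose and 3 fell at P14, and 2 rose and 8 fell at P21. The Norrin receptor gene Fzd4 and its co-receptor gene Lrp5 rose by 2.87 and 2.42 at P14, and the target genes Apcdd1 and Lef1 by 3.65 and 3.24 (edgeR, adjusted p from 3.23e-09 to 1.41e-07). Apcdd1 fell by 0.79 and the co-receptor gene Tspan12 by 0.88 at P21 (edgeR, adjusted p = 0.000127 and 8.81e-05).

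Of 15 other VEGF and hypoxia genes, 8 rose and 5 fell at P14, and 3 rose and 7 fell at P21. The 5 lower at P14 are about the share of all genes. Epas1, HIF-2α, rose by 3.58 and Nrp2, a VEGF and semaphorin co-receptor also of neurons, fell by 2.04 at P14, and Pdgfb, the signal by which endothelium recruits pericytes, fell by 2.19 at P21 (edgeR, adjusted p = 1.15e-08, 2.79e-07 and 9.98e-05). Of 21 other transporters and junction genes of the barrier, 17 rose and 3 fell at P14, and 6 rose and 5 fell at P21. Of all genes, 14.6% were called higher and 19.3% lower at P21 over P14, so only the 5 falls stand near their share. Slc38a5, an amino acid transporter of retinal vessels, rose by 5.6 at P14 and fell by 2.74 at P21, and F11r, the junction molecule JAM-A, rose by 3.26 and fell by 0.85 (edgeR, adjusted p from 2.19e-08 to 0.000752).

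In injured adults, AAV2-Cre, given to delete Kdm6a, an H3K27 demethylase, was compared with AAV2-GFP. Kdm6a itself had 111 and 113 CPM in AAV2-Cre, against 116, 102 and 123 CPM in AAV2-GFP. The groups overlapped, and counts over the whole gene do not single out the deleted exon 3. They do not show whether the cells that gave the vessel RNA lost Kdm6a. The paper reports lower Kdm6a mRNA by real-time PCR in RGCs purified after AAV2-Cre. Of 31 vessel genes tested, 0 were called higher and 0 lower by edgeR, where 1.33% of 18395 genes were higher and 0.294% lower, and 2 had an unadjusted p under 0.05, as had 16.5% of all genes. DESeq2 called 1, Esm1. Emcn, Tie1, Aplnr, Erg and Vwf were below the count filter. Tie1 had 0.440 and 2.63 CPM in AAV2-Cre, against 0.363, 0 and 0 CPM in AAV2-GFP, and Aplnr had 0.586 and 1.93 CPM in AAV2-Cre, against 0.0725, 0 and 0.312 CPM in AAV2-GFP, with both AAV2-Cre libraries highest, while Vwf was at 1.03 CPM or less and Erg at 0.449 CPM or less in all 5 libraries and Emcn at 0 in AAV2-GFP replicate 2. Fold changes leaned upward, with 26 of 31 above 0, against 47.6% of all genes, and a median of 0.33, against -0.028. Some signs changed over the alternatives. These were Icam2, Cd34, Mmrn2, Kdr, Angpt1, Tek, Slco1a4, Sox17 and Sox18 among genes above 0, and Flt1, Flt4 and Apln among those below.

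**Figure D5:**
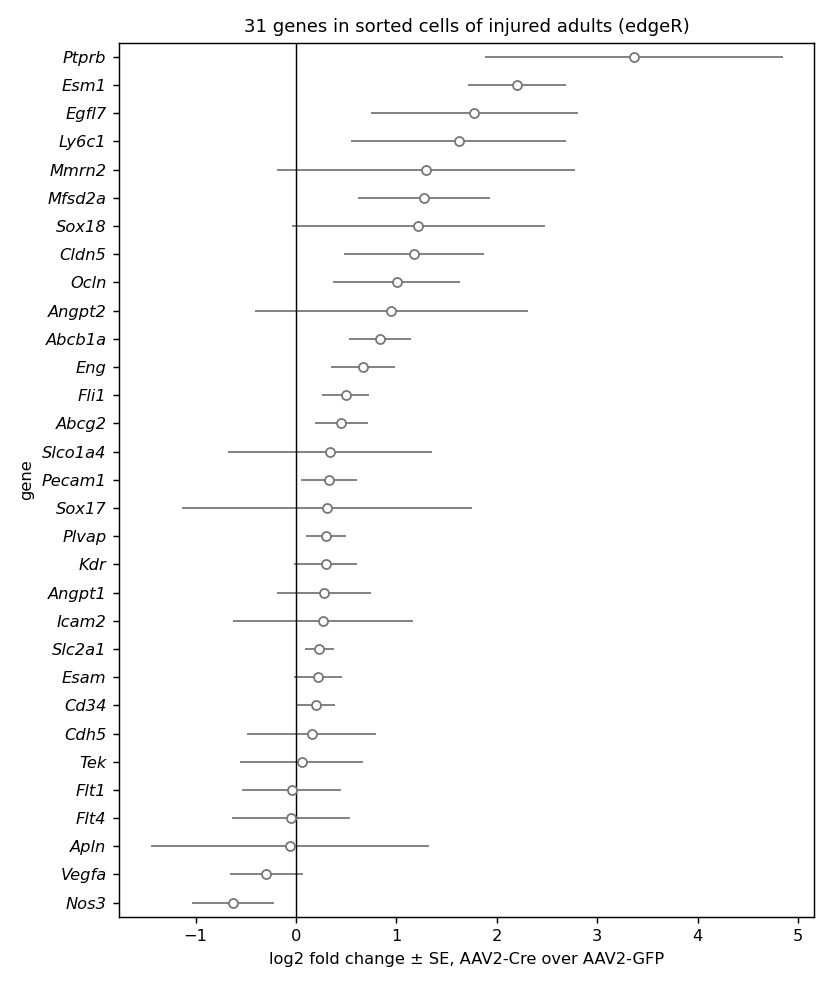
Log2 fold change of AAV2-Cre over AAV2-GFP with its standard error (SE, horizontal bars) for the 31 genes tested, ordered by size. Open points mark an adjusted p of 0.05 or above (edgeR), which holds for all 31, from Nos3 at -0.63 to Ptprb at 3.37.

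Esm1 showed the smallest p. It had 14.1 and 10.7 CPM in AAV2-Cre, against 3.55, 3.40 and 1.19 CPM in AAV2-GFP, and both AAV2-Cre libraries lay above all AAV2-GFP libraries (log2 fold change 2.2, SE 0.49, adjusted p = 0.0666, edgeR). It passed the threshold with DESeq2, with edgeR with no filter on low counts, and with edgeR on genes with at least 10 counts in every library (adjusted p = 0.00189, 0.000111 and 0.04004). Ptprb had 1.17 and 2.83 CPM in AAV2-Cre, against 0.580, 0 and 0 CPM in AAV2-GFP, with a log2 fold change of 3.37 (SE 1.48, adjusted p = 0.304, edgeR), and Egfl7 had 0.953 and 1.54 CPM in AAV2-Cre, against 0.580, 0.128 and 0.375 CPM in AAV2-GFP, with 1.78 (SE 1.03, adjusted p = 0.444, edgeR). Of the alternatives tried, 1 called both, the fit of all 13 libraries together (edgeR, adjusted p = 0.0316 and 0.0383). Ptprb was at 0 in AAV2-GFP replicates 2 and 3.

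Without overlap between libraries, 10 of the 31 tested genes were higher in AAV2-Cre, where 17.9% of all genes were, and 2 were lower, where 17.6% were. Abcb1a had 23.1 and 17.2 CPM in AAV2-Cre, against 8.56, 14.9 and 10.4 CPM in AAV2-GFP, Eng had 49.8 and 47.1 CPM in AAV2-Cre, against 18.8, 44.5 and 28.1 CPM in AAV2-GFP and Fli1 had 148 and 108 CPM in AAV2-Cre, against 65.3, 104 and 103 CPM in AAV2-GFP. Each of these sets AAV2-Cre above AAV2-GFP, with log2 fold changes of 0.83, 0.67 and 0.50 and SE of 0.31, 0.32 and 0.24 (edgeR, adjusted p = 0.223, 0.34 and 0.34). Slc2a1 had 458 and 533 CPM in AAV2-Cre, against 429, 441 and 396 CPM in AAV2-GFP, Plvap had 35.1 and 36.1 CPM in AAV2-Cre, against 32.1, 29.1 and 25.7 CPM in AAV2-GFP and Ocln had 4.91 and 5.85 CPM in AAV2-Cre, against 2.47, 0.963 and 4.62 CPM in AAV2-GFP, and Abcg2, with 0.45 (SE 0.26), was also higher without overlap. The lower genes were Vegfa, with 5.57 and 5.20 CPM in AAV2-Cre, against 6.60, 7.57 and 5.68 CPM in AAV2-GFP, and Nos3, with 3.01 and 5.08 CPM in AAV2-Cre, against 6.16, 6.80 and 5.81 CPM in AAV2-GFP. Neither was called (log2 fold changes -0.30 and -0.63, SE 0.36 and 0.41).

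Cdh5 and Pecam1 overlapped between the groups, unlike Tie1, Eng, Ptprb and Egfl7. Cdh5 had 2.35 and 1.93 CPM in AAV2-Cre, against 1.52, 1.54 and 2.68 CPM in AAV2-GFP, with a log2 fold change of 0.15 (SE 0.64), and Pecam1 had 20.1 and 13.1 CPM in AAV2-Cre, against 11.7, 14.4 and 13.4 CPM in AAV2-GFP, with 0.33 (SE 0.28). Cldn5 had 1.47 and 4.95 CPM in AAV2-Cre, against 1.09, 1.60 and 1.56 CPM in AAV2-GFP and Mfsd2a had 2.93 and 5.59 CPM in AAV2-Cre, against 0.943, 3.02 and 1.31 CPM in AAV2-GFP, and AAV2-Cre replicate 2 was the highest of the 5 libraries for both. The receptor genes Kdr, Flt1, Flt4 and Tek were at 0.30, -0.04, -0.05 and 0.06, and Angpt1, Angpt2 and Apln at 0.28, 0.95 and -0.06 on the log2 scale. Cd34, Esam and Icam2 were at 0.19, 0.22 and 0.27, and Mmrn2, Slco1a4, Sox17 and Sox18, at 1.29, 0.34, 0.31 and 1.22, each had an SE above 1. Ly6c1 was at 1.62 (SE 1.07), with 150.4 and 199 CPM of its near-identical neighbor Ly6c2 in AAV2-Cre, against 36.6, 31.6 and 51.8 CPM in AAV2-GFP.

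Some related genes outside the 36 were called. Ly6a is a surface protein of endothelium and blood cells, and Ets1 an ETS factor of endothelium and lymphocytes. Both were higher in AAV2-Cre, by 2.01 and 1.37 (edgeR, adjusted p = 0.00698 and 0.0319). They were the only calls among 23 other endothelial genes tested, where 1.33% of all genes were called higher and 0.294% lower. At an unadjusted p under 0.05 (edgeR), 6 of the 23 were higher and 1 lower, where 16.5% of all genes passed either way. The 31 genes of this list, with these 2 among them, summed to 1203 and 1126 CPM in AAV2-Cre, against 564, 802 and 712 CPM in AAV2-GFP. Of the VEGF and hypoxia, Norrin and Wnt, and barrier lists, 0 of 14, 0 of 14 and 0 of 18 genes were called by edgeR, and 2, 1 and 2 had an unadjusted p under 0.05. Markers of other cells also differed between the groups. T and NK cell markers took 0.0696% and 0.123% of counts in AAV2-Cre, against 0.0331% to 0.0615% in AAV2-GFP, and B cell markers 0.0580% and 0.118%, against 0.0208% to 0.0489%. Of these, edgeR called 0 of 12 T and NK cell markers (10 higher at an unadjusted p under 0.05) and 2 of 8 B cell markers. Microglia and macrophage markers overlapped, with 0.774% and 0.911% in AAV2-Cre, against 0.546%, 0.833% and 0.775% in AAV2-GFP, and edgeR called 1 of 12 higher. It also called 1 of 10 pericyte markers and 1 of 10 glia markers higher, and 1 of 8 ganglion cell markers lower. Rod markers took 1.25% and 2.70% of counts in AAV2-Cre, against 2.82% to 3.29% in AAV2-GFP, while their sums in CPM overlapped, at 12744 and 27884, against 27761 to 32584. All 10 rod markers had log2 fold changes below 0, from -1.21 to -0.22, and edgeR called 0 of them (4 lower at an unadjusted p under 0.05). The part of these cells in the differences was not tested.

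Set side by side with development, the adult libraries carried vessel genes in different proportions. In all 5 adult libraries, Cd34, Angpt1, Esm1, Fli1 and Plvap were above all 8 development libraries, and Vegfa, Angpt2, Abcg2 and Egfl7 were below all of them. The other 27 genes overlapped. The share of all genes that separate in this way is not given here, so the separation is not read as particular to vessel genes. Fli1 ran from 65.3 to 148 CPM in the adults, against at most 5.51 CPM in development, and Cd34 from 91.2 to 139 CPM, against at most 31.3 CPM. Plvap ran from 25.7 to 36.1 CPM, against 3.91 to 6.35 CPM, Angpt1 from 6.23 to 16.4 CPM, against 1.52 to 5.28 CPM, and Esm1 from 1.19 to 14.1 CPM, against at most 0.182 CPM. Vegfa ran from 5.20 to 7.57 CPM in the adults, against 178 to 1138 CPM in development. Of the endothelial genes, Cdh5 ran from 1.52 to 2.68 CPM in the adults, above the P1 libraries and below those of P14 and P21, while Erg was at 0 in 4 of 5 adult libraries. Microglia and macrophage markers took 0.546% to 0.911% of counts in the adults, against at most 0.0259% in development. Age, injury, virus, genotype and dataset cannot be told apart here, and levels were scaled within each dataset, so no test was made.

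Levels per kilobase of exon order the genes within a group. In the AAV2-Cre libraries Slc2a1 came first at 141 CPM per kb, followed by Fli1 at 36.7, Kdr at 18.8, Plvap at 17.9 and Cd34 at 16.5, and in the AAV2-GFP libraries the same 5 genes came first, with Slc2a1 at 120.3 and Fli1 at 26.0. At P1 the order began with Vegfa at 45.8, Slc2a1 at 27.1 and Kdr at 15.6, at P14 with Vegfa at 264, Slc2a1 at 127 and Kdr at 96.1, and at P21 with Vegfa at 235, Slc2a1 at 174 and Kdr at 113. Esam, Flt1 and Cldn5 were also among the first 8 at each of these 3 ages. At P14 Eng and Tie1 stood sixth and eighth, at 22.8 and 13.6 CPM per kb, and neither was among the first 8 at P1 or P21.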

How the data were processed

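RNA of Thy1.2-sorted retinal cells was sequenced as 150 bp paired ends by the authors, trimmed with Trimmomatic 0.39, aligned to GRCm38 with HISAT2 2.2.1 and counted per gene with featureCounts (Subread 2.0.3). The deposited values are these raw counts, with no normalization. The annotation and the strand setting are not given in the sources used here. All columns were used (0 left unused), 52403 of 52550 gene IDs had a symbol, and 1 listed gene had no match.

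Each dataset had its own fit in edgeR 4.0.16 (R 4.3.3; TMM, filterByExpr, quasi-likelihood test, Benjamini-Hochberg adjustment over all genes tested), and the code was tested on simulated data. All 36 genes are named. Values per library are given for up to 3 called genes with the smallest adjusted p per role and comparison and for Cdh5, Cldn5, Plvap, Mfsd2a, Slc2a1 and Vegfa, and the other lists give genes among the 4 with the smallest p. Per-library values of other genes (Flt1, Ptprb and genes of the AAV2-Cre comparison) were added after their values were seen. The members and lists were chosen with earlier results of these data known. Alternatives were DESeq2 1.42.0, other scaling and filters, 1 fit of 13 libraries, a fold limit, a replicate block and leaving out each library.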

Additional observations from a re-analysis of the deposited data

How the results depend on the processing

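For AAV2-Cre over AAV2-GFP, 1 gene, Esm1, was called higher with DESeq2, 1 with no low-count filter and 1 with at least 10 counts in every library, and 2 genes with all 13 libraries in 1 fit, against 0 in the separate fit. Over all genes DESeq2 called 777 higher and 519 lower there, against 244 and 54 by edgeR, and no low-count filter 969 and 543. The 1 lower gene at P14 versus P1, Angpt1, became 0 with library size alone, with all 13 libraries in 1 fit and with a log2 fold change beyond 1 as well. At P21 versus P14, 3 genes were higher with no low-count filter and 0 with all 13 libraries in 1 fit, against 1. Relative to the core endothelial genes, 3 were lower at P21 with Pecam1 added and Esam left out, against 6. Leaving out each library in turn gave 0 to 0 calls higher and 0 to 0 lower for AAV2-Cre versus AAV2-GFP, 33 to 33 higher and 0 to 1 lower at P14 versus P1, 0 to 5 higher and 15 to 22 lower at P21 versus P14, and 28 to 33 higher and 0 to 0 lower at P21 versus P1. Of the other values for single genes, 1980 kept their call or lack of one, 48 lost a call and 23 gained one. Of values with a call in either fit, 0 changed direction. Direction was not compared where neither fit gave a call, and some of those signs changed. Mmrn2 in AAV2-Cre over AAV2-GFP, for example, ran from -6.73 to 2.32 on the log2 scale over the alternatives. With library size alone the median of all genes at P14 versus P1 moved to 0.11, and the split of calls to 7989 higher and 5961 lower, against 7010 and 7009, and at P21 versus P14 to 2326 and 4722, against 3047 and 4024. The causes were not tested. Levels under 3 counts in some libraries limit Esm1, Fli1 and Erg in development. In adults they limit Erg, Tie1, Ptprb, Emcn, Mmrn2, Angpt2, Apln, Aplnr, Ly6c1, Sox17, Sox18 and Egfl7.

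With the replicate number as a block (replicate block), 16 genes fell at P21 versus P14, against 19, with Tek, Ocln and Fli1 no longer called. Same-numbered libraries deviated from their group means with correlations of -0.047 to 0.020, which show no pairing by number. In a group of 2 libraries the deviations mirror each other, so this check cannot exclude a pairing.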

Other observations

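Genes of sprout guidance, outside the 36, also moved with age. Of 17 Notch and other tip and stalk genes, edgeR called 14 higher and 1 lower at P14 against P1, where 33.6% of all genes were higher and 33.6% lower, and 1 higher and 10 lower at P21 against P14, where 14.6% were higher and 19.3% lower. Unc5b, a guidance receptor of tip cells, and Ephb4, an ephrin receptor of veins, rose by 2.9 and 2.18 on the log2 scale at P14, while Jag2, a Notch ligand, fell by 1.18 (edgeR, adjusted p = 5.08e-09, 1.03e-08 and 8.42e-08). At P21, Cxcr4, a chemokine receptor of tip cells, and Mcam, an adhesion molecule of endothelium and pericytes, fell by 1.25 and 2.23 (edgeR, adjusted p = 1.29e-05 and 8.75e-05).

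In the AAV2-Cre libraries, Icam1 and Vcam1, adhesion molecules that hold leukocytes on inflamed endothelium and are also made by other cells, were higher by 0.91 and 1.32 than in AAV2-GFP (edgeR, adjusted p = 0.032 and 0.0372), 2 calls among 10 genes of that list tested, where 1.33% of all genes were called higher. Jag1, a Notch ligand, was lower, with a log2 fold change of -1.11 (edgeR, adjusted p = 0.0216), the 1 call among 13 Notch and tip and stalk genes tested, where 0.294% of all genes were called lower. The T, NK and B cell markers that stood higher in AAV2-Cre were given beside the vessel genes, and their part in these calls was not tested.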
